A study of Mus musculus with 8 samples.

Results

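Epiregulin (Ereg) and its relatives are growth factors of the epidermal growth factor (EGF) family, and the ErbB proteins are the receptor tyrosine kinases they bind. The set described here was a list of 10 named genes: the ligands Ereg, Areg, Btc, Hbegf, Tgfa and Nrg1, and the receptors Egfr, Erbb2, Erbb3 and Erbb4. Members were taken as every probe set that the array annotation assigns to 1 of these symbols alone. In this way 9 of the 10 genes were measured, by 20 of the 45037 probe sets tested, and they are 9 of 18193 genes. Areg was not analysed here. Where a gene has more than 1 probe set, its value comes from the probe set that is brightest on average, and the others are given beside it.

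The study compared the transcripts of XX and XY mouse gonads at embryonic day 13 (E13) with 8 Affymetrix Mouse Genome arrays, 2 for each of 4 groups. The first group held XX pre-granulosa cells, about 30000 per sample, and the second held XY Sertoli cells, about 22000 per sample, both collected by sorting for EGFP. The others were whole ovaries (XX) and whole testes (XY), with 4 gonads pooled per sample. The labels give the strain as C57BL6/J-Tg92, name no drug or induced mutation, and do not say which sequence drives EGFP. Tg92 is known as a line in which regulatory sequence of the sex-determining gene Sry drives EGFP, so a sorted group holds the cells in which that sequence is active. Whether replicate samples were taken from different animals is not in the labels, so p-values measure only the spread between these samples.

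EGF-family ligands are made as membrane proteins and are released by metalloproteases called sheddases. A ligand brings receptors together in pairs: epiregulin, betacellulin (Btc) and HB-EGF (Hbegf) bind EGFR and ErbB4, TGF-alpha (Tgfa) binds EGFR, and neuregulin 1 (Nrg1) binds ErbB3 and ErbB4. ErbB2 has no known ligand of its own and acts as a partner, and ErbB3 has little kinase activity and signals through its partners. In the adult ovary, epiregulin, amphiregulin and betacellulin from granulosa cells of the preovulatory follicle relay the surge of luteinizing hormone to the cumulus cells around the oocyte.

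All levels are log2 values as deposited, so a difference of 1 is a doubling, and levels of different probe sets cannot be set against each other. A value at or under 4.78 is called background: it is the highest value reached on XX arrays by the 9 probe sets for Uty, Kdm5d and Eif2s3y, which are Y-linked. Called means an adjusted p at or below 0.01 in limma with Benjamini-Hochberg adjustment over all probe sets, the threshold of the series text. The marker lists followed the labels in direction: 8 of 13 Sertoli markers were called higher in the Sertoli samples, and 3 of 9 pre-granulosa markers were called lower there. On each pre-granulosa array 12 of the 13 Sertoli markers were above background. Sox9, which was not called, read 9.46 and 10.56 there and 11.53 and 11.95 in Sertoli cells. On the Sertoli arrays 9 and 8 of the 9 pre-granulosa markers were above background. Of 11 germ cell markers, 3 to 5 were above background on each sorted array and 10 on each gonad array, with list means of 4.50 to 4.68 and 8.42 to 8.93. Limma called 1 of the 11 between the sorted groups, Sycp3, a meiotic chromosome protein, which read 8.18 and 7.47 in pre-granulosa cells and 5.71 and 5.31 in Sertoli cells, while Ddx4, a germ cell helicase, was at background on all 4 sorted arrays (3.13 to 4.66). Some marker lists of other cells were higher in Sertoli samples. The 4 measured of 6 fetal Leydig markers averaged 8.23 and 9.39 there and 6.92 and 6.47 in pre-granulosa cells. Limma called 0 of them, and all 4 had an unadjusted p under 0.05. The 10 macrophage markers averaged 5.76 and 7.14 against 4.76 and 4.50, with 1 called. Of 10 endothelial markers 1 was called higher, Robo4 (2.87), with list means of 6.19 and 6.47 against 5.21 and 5.82. The means of other lists were lower in Sertoli samples, but their genes did not move together. The 5 measured mesonephric duct or tubule markers averaged 6.84 and 7.65 there and 8.13 and 8.49 in pre-granulosa cells, with 0 called. Ret (-4.10), Emx2 (-1.64) and Pax8 (-1.09) were lower, and Cdh16 (0.95) and Lhx1 (0.57) higher. The 7 surface epithelium markers averaged 6.30 and 6.21 against 6.95 and 6.68, with 1 called lower, Lhx9 (-4.43). Krt19 (-1.485) and Krt18 (-1.09) were also lower, while Gpm6a (1.85), Krt7 (0.76) and Upk3b (0.45) were higher and Msln differed by 0.03. The first pre-granulosa array stood apart: its 3' to 5' log2 signal difference was 3.08 for actin and 3.68 for Gapdh, against 1.57 to 2.51 and 0.72 to 2.69 on the other 7 arrays. The sorted and the gonad arrays look to have been normalized separately, so they were not tested against each other, and their levels stand side by side only.

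Ereg was the member with the largest difference between XX and XY, and it was high in both XX groups. Among the 9 measured members it alone was called, and it was lower in XY in both comparisons. Called genes made up 2.67% of all genes for Sertoli minus pre-granulosa and 0.352% for testis minus ovary. By position among 18193 genes, the Ereg difference was the 4th lowest in the sorted cells and the 14th lowest in the gonads.

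Pre-granulosa cells read 10.77 and 11.32 for the single Ereg probe set (1419431_at), and Sertoli cells read 4.86 and 4.64. The groups were far apart, and the Sertoli arrays lay just above and just below background. Sertoli minus pre-granulosa was -6.29 ± 0.24 (SE, n = 2 arrays per group, 95% confidence interval -6.87 to -5.71), 78.5-fold lower as measured (limma, adjusted p = 0.000508). Since 1 of the 2 Sertoli arrays was at background, the fold is better read as a bound, and against the background level itself it was at least 76.6-fold. The ovaries read 11.07 and 11 and the testes 7.13 and 7.52, so the testes were well above background and well below the ovaries. Testis minus ovary was -3.70 ± 0.24 (interval -4.28 to -3.12), or 13.04-fold lower (adjusted p = 0.00412). In the gonads the call did not hold without either Sertoli array, which share the estimate of spread (adjusted p = 0.0127 for each), or without either ovary or testis array (0.0502 to 0.0760), while the difference ranged from -3.90 to -3.51.

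The order of the Ereg levels was pre-granulosa (mean 11.04 ± 0.39, SD) and ovary (11.03 ± 0.05), then testis (7.33 ± 0.28), then Sertoli (4.75 ± 0.16). Pre-granulosa and ovary did not differ beyond their spread as deposited, but after quantile normalization over all 8 arrays the pre-granulosa mean was 11.36 and the ovary mean 10.77, with no overlap. As a rank within its array, Ereg stood at the 95.9th and 97.1th percentile of probe sets in pre-granulosa cells and at the 94.8th and 94.5th in ovaries. In testes it stood at the 65.3th and 69.4th percentile, and in Sertoli cells at the 36.8th and 32.8th. The XY minus XX difference was thus larger in the sorted cells by 2.59 ± 0.34, but this difference of differences was not called (limma, adjusted p = 0.0583). In whole gonads, fewer cells of a type and less RNA per cell cannot be told apart.

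**Figure D1:**
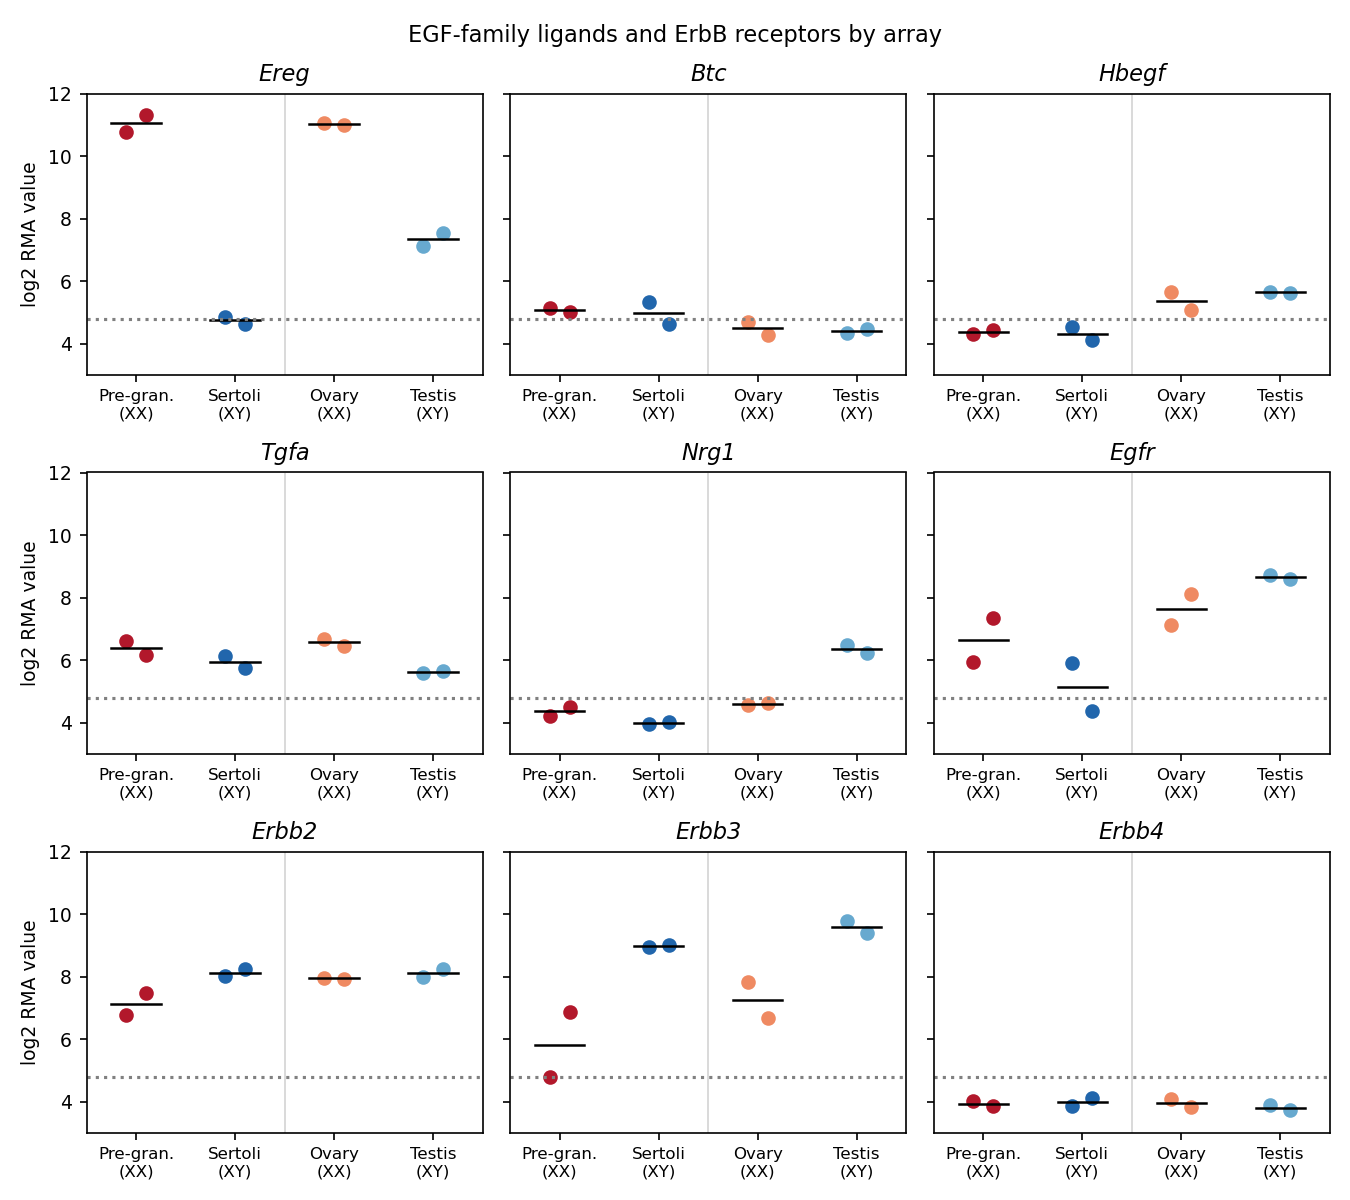
Log2 level of each measured member on each of the 8 arrays (points) with the mean of the 2 arrays of a group (bar), by group; the dotted line is the background level of 4.78. Ereg is near 11 in both XX groups, between 7.13 and 7.52 in testes and near the line in Sertoli cells, while Erbb4 is under the line on every array.

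None of the other ligands was called. Nrg1, whose product acts on ErbB3 and ErbB4 in many tissues including nerve and heart, was read by a single probe set. Nrg1 was at background in 3 of the 4 groups. It read 4.21 and 4.50 in pre-granulosa cells, 3.95 and 4.01 in Sertoli cells and 4.57 and 4.63 in ovaries. Testes read 6.47 and 6.22. Testis minus ovary was 1.75 ± 0.17 (interval 1.34 to 2.16), and because the ovaries lay at background the testes were at least 2.96-fold higher. The limma adjusted p was 0.0135, just over the threshold of 0.01. Of 17 alternatives 2 called it, a trended and robust variance (adjusted p = 0.00958) and group weights (0.00193). The highest values came from the omission of an ovary or testis array (0.107 to 0.177), a replicate block (0.115) and no moderation (0.0888). Sertoli minus pre-granulosa was -0.37, with both groups at background. With 3 of the 4 groups at background, the difference of differences for Nrg1 has no exact size and is not given.

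Some marker lists were higher in testes, as Nrg1 was. The Sertoli list averaged 10.27 and 10.25 in testes and 7.565 and 7.62 in ovaries. Other lists were lower in testes, among them germ cell (8.50 and 8.42, against 8.93 and 8.82) and macrophage (6.12 and 6.30, against 6.41 and 6.74). The mean level of the 4 measured fetal Leydig markers was 11.37 and 11.11 in testes and 6.68 and 6.74 in ovaries, and 3 of the 4 were called higher in testes. It was 8.23 and 9.39 in Sertoli samples, where Nrg1 was at background. The 8 measured interstitial markers averaged 10.72 and 10.71 in testes and 9.76 and 9.95 in ovaries, with 0 called in limma and 4 at an unadjusted p under 0.05 (11.5% of all genes). Ptch1, among these 4, read 13.25 and 13.11 in testes and 13.13 and 13.07 in Sertoli samples. Which cells of the testis carried the Nrg1 signal was not tested.

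Tgfa was measured by 3 probe sets. The brightest read 6.62 and 6.17 in pre-granulosa cells, 6.11 and 5.74 in Sertoli cells, 6.67 and 6.46 in ovaries and 5.59 and 5.64 in testes. XY was below XX in both pairs without overlap. Testis minus ovary was -0.95 ± 0.22 (1.93-fold lower, limma adjusted p = 0.191) and Sertoli minus pre-granulosa was -0.47 ± 0.22 (adjusted p = 0.325), and neither was called. The other 2 probe sets differed by no more than 0.14 in either comparison.

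Btc lay close to background. Its brighter probe set read 5.15 and 5.01 in pre-granulosa cells, 5.34 and 4.64 in Sertoli cells, 4.70 and 4.29 in ovaries and 4.33 and 4.48 in testes. The differences were -0.09 in the sorted cells (interval -0.74 to 0.57) and -0.09 in the gonads, where both groups were at background. The second Btc probe set was above background only on the first ovary array (5.15 and 4.58 in ovaries, 3.68 and 3.99 in testes). Its groups were apart in the gonads, with a measured testis minus ovary difference of -1.03 (adjusted p = 0.216, not called), but against the background level the ovary mean was only 1.06-fold higher.

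Hbegf, a ligand whose precursor also acts on neighbouring cells, was at background in all sorted samples (4.11 to 4.53). In the gonads it read 5.65 and 5.06 in ovaries and 5.64 and 5.63 in testes, and the groups overlapped (difference 0.28, limma adjusted p = 0.880). Its second probe set, also at background in the sorted cells, went the other way: 5.28 and 5.41 in ovaries, and 4.39 and 4.77 in testes, which were at background (difference -0.77, at least 1.48-fold higher in ovaries, adjusted p = 0.175). The probe sets for Hbegf thus disagree in sign, and neither was called.

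Among the receptors, Erbb3 had the largest differences and was higher in XY in both comparisons, but it was not called in either. Pre-granulosa cells read 4.77 and 6.86, ovaries 7.82 and 6.66, Sertoli cells 8.96 and 8.99, and testes 9.79 and 9.40. Both XY groups lay above both XX groups, and the Sertoli arrays were close together while the pre-granulosa arrays were 2.08 apart, the first of them at background. Sertoli minus pre-granulosa was 3.16 ± 0.70 (interval 1.46 to 4.85, 8.93-fold higher, limma adjusted p = 0.0589), the 118th highest of 18193 genes. Without the second pre-granulosa array the difference was 4.20 and was called (adjusted p = 0.00819), and over the omission of each array it ranged from 2.12 to 4.20. Testis minus ovary was 2.35 ± 0.70 (interval 0.66 to 4.05, 5.11-fold higher, adjusted p = 0.322). The second Erbb3 probe set read 4.48 to 4.82 on all arrays and differed by 0.06 and -0.05.

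Some values of other genes are set beside the Erbb3 levels here. ErbB3 is a known receptor of Schwann cell precursors, and 5 of 8 listed neural crest or Schwann markers were measured. Their mean was 4.97 and 5.09 in pre-granulosa cells and 5.92 and 5.72 in Sertoli cells. The only 1 of them called was Sox10, which is also on the Sertoli list, and without it the mean was 4.88 and 4.91 in pre-granulosa cells and 4.89 and 4.70 in Sertoli cells. Of the other 4, Foxd3 differed by 0.11 with both groups at background, Ngfr by 0.20, Tfap2b by 0.04 and Fabp7 by -0.75. The first pre-granulosa array, where Erbb3 was at background, was also the one with the largest 3' to 5' signal difference. Its mean over the interstitial markers was 6.54, against 7.79 on the second and 7.97 and 8.06 on the Sertoli arrays. The part of these in the Erbb3 difference was not tested.

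Egfr, the receptor for epiregulin, betacellulin, HB-EGF and TGF-alpha, was read by 7 probe sets that did not behave alike. The brightest (1424932_at) read 5.94 and 7.33 in pre-granulosa cells, 5.91 and 4.38 in Sertoli cells, 7.12 and 8.12 in ovaries and 8.72 and 8.60 in testes. It was lowest in Sertoli cells, where 1 array was at background, followed by pre-granulosa cells, ovaries and testes, as deposited. The 2 arrays of a group lay 1.01 to 1.53 apart except in testes, and neighbouring group means in this order lay 0.98 to 1.49 apart, within that spread. Sertoli minus pre-granulosa was -1.49 ± 0.66 (interval -3.10 to 0.12, limma adjusted p = 0.303, -2.25 to -0.73 with 1 array left out) and testis minus ovary 1.04 ± 0.66 (interval -0.57 to 2.65, adjusted p = 0.776, 0.54 to 1.54 with 1 array left out). The signs were thus opposite, with a difference of -2.53 ± 0.94 (adjusted p = 0.384). A second probe set (1435888_at) gave the same signs: 5.57 and 6.15, then 5.20 and 4.93, then 6.46 and 6.21, then 7.004 and 7.60, in the same order of groups. Its differences were -0.79 in the sorted cells and 0.97 in the gonads, and -1.76 ± 0.41 between them (adjusted p = 0.176). The other 5 Egfr probe sets differed by -0.32 to 0.44 and by -0.12 to 0.15, and 2 of them were at background in all groups. Beside this, the interstitial list was higher in testes (10.72 and 10.71) than in Sertoli samples (7.97 and 8.06), and its part in the Egfr levels was not tested.

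Erbb2, the shared partner receptor, was above background on every array. It read 6.77 and 7.47 in pre-granulosa cells, 8.01 and 8.22 in Sertoli cells, 7.96 and 7.92 in ovaries and 7.99 and 8.24 in testes. As deposited, pre-granulosa cells were the low group and the other 3 groups lay between 7.92 and 8.24. After quantile normalization over all 8 arrays this order did not hold: pre-granulosa cells (6.996 and 7.71) overlapped ovaries (7.69 and 7.65), and the Sertoli mean of 8.38 stood above those of testes (7.87) and ovaries (7.67). Sertoli minus pre-granulosa was 0.99 ± 0.25 (interval 0.38 to 1.61, 1.99-fold higher, limma adjusted p = 0.0886, not called), and testis minus ovary was 0.18 (adjusted p = 0.964). Erbb4, the second receptor for epiregulin, betacellulin and HB-EGF and a receptor for neuregulins, was read by a single probe set. Its values were 3.71 to 4.11, at background on all 8 arrays, so its differences of 0.05 and -0.16 carry no direction. For Erbb3 and Egfr some probe sets lay near background while others did not. A single probe set at background thus does not show that Erbb4 was absent.

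**Figure D2:**
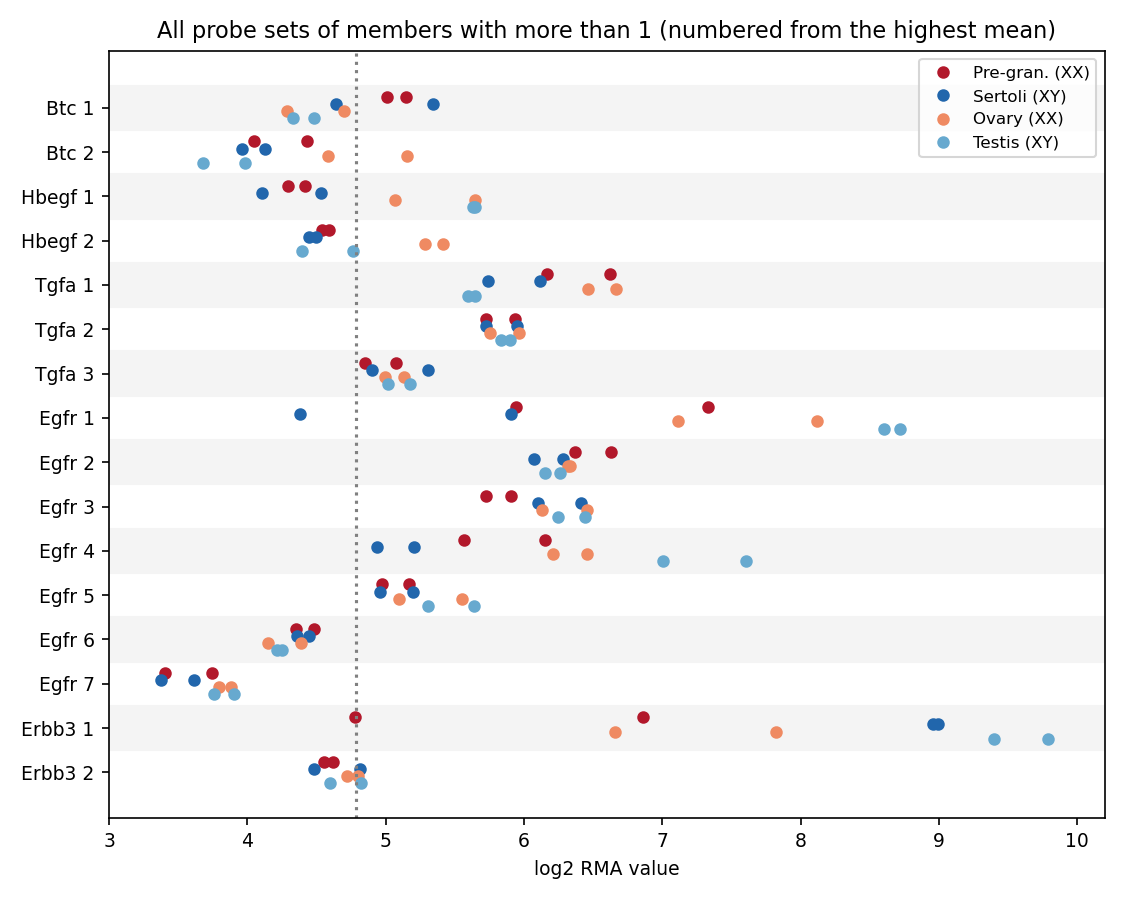
Log2 level on each array (points, coloured by group) for every probe set of the members that have more than 1, numbered within a gene from the highest mean; the dotted line is the background level. Egfr 1 and Egfr 4 and Erbb3 1 are spread over the groups, and the other probe sets of these genes are not.

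Across the 9 members, the 2 groups did not overlap for 6 genes in the sorted cells and for 6 in the gonads. The same was so for 43.3% and 55.2% of all genes. The median difference of the members was -0.09 in the sorted cells, beside 0.04 over all genes, and 0.18 in the gonads, beside -0.03 over all genes. At an unadjusted p under 0.05 there were 3 of 9 members in the sorted cells and 4 in the gonads, beside 22.4% and 11.5% of all genes. For the difference of differences limma called 0 members, as it did for 0% of all genes, while 3 members, of which Nrg1 lay at background in 3 groups, had an unadjusted p under 0.05, beside 13% of all genes. Over the 20 probe sets of the members, 1 was called in each comparison of XY with XX, the Ereg probe set.

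**Figure D3:**
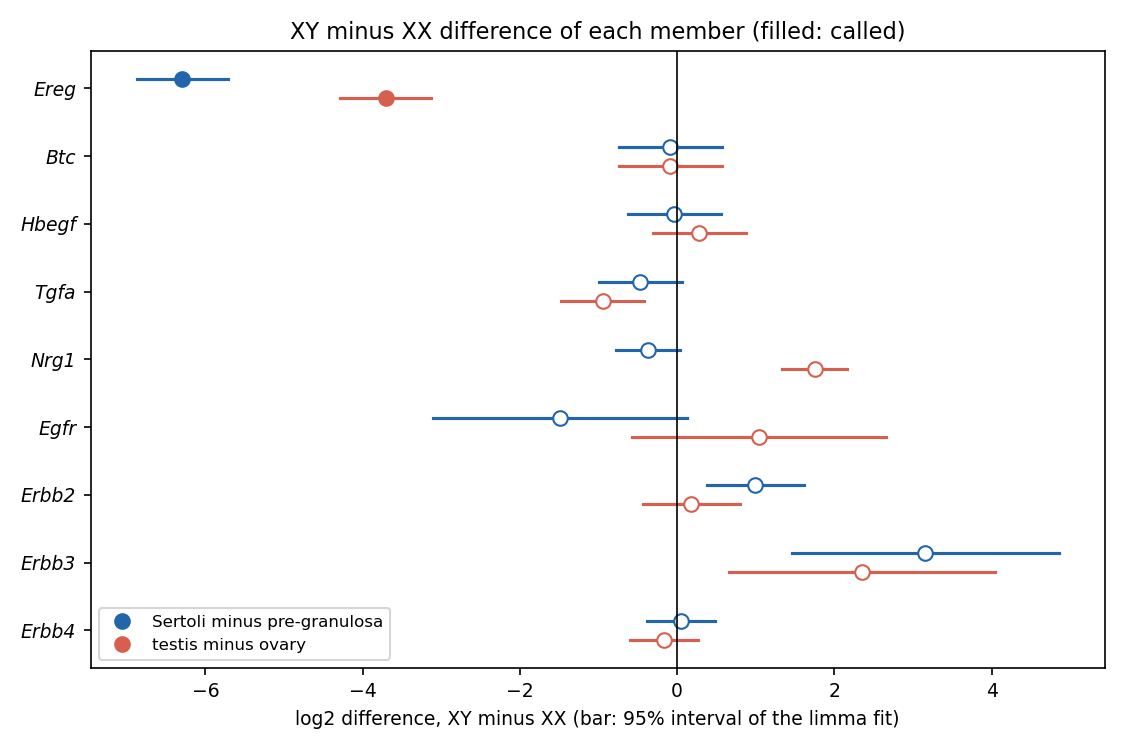
Log2 difference of each measured member (circle, filled where called) with its 95% confidence interval (bar), for Sertoli minus pre-granulosa and testis minus ovary. Ereg lies at -6.29 and -3.70, and Erbb3 at 3.16 and 2.35 with wide intervals.

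The rest of the pathway was described by 6 lists with 77 entries, of which 72 were measured and 5 were not analysed here. In Sertoli minus pre-granulosa 4 of the 72 were called higher and 0 lower, beside 2.67% of all genes called in either direction. With 1 array left out the count was 8 without the second pre-granulosa array, 3 without the first or without the first Sertoli array, 2 without either ovary array, and 1 without the second Sertoli array or either testis array. The median difference of the 72 was 0.21, beside 0.04 over all genes. In testis minus ovary 1 was called higher and 0 lower, beside 0.352%, with a median of 0.11 beside -0.03. For the difference of differences limma called 0, and 13 of the 72 had an unadjusted p under 0.05, beside 13% of all genes. The Leydig, macrophage and endothelial markers that were higher in Sertoli samples moved the same way as these calls, and their part in them was not tested.

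Of the 8 sheddases and their regulators, 1 was called in both comparisons: Adam12, a metalloprotease of the ADAM family. It read 3.95 and 4.10 in pre-granulosa cells, 6.98 and 6.84 in Sertoli cells, 7.09 and 6.98 in ovaries and 9.23 and 9.13 in testes. Only the pre-granulosa arrays were at background, and the groups were well apart in both pairs. Sertoli cells were at least 4.36-fold higher (measured difference 2.88 ± 0.15, limma adjusted p = 0.000999). This call was lost without moderation (0.0112), with the 4 sorted arrays alone (0.0621) and with a replicate block (0.0202). Testes were higher by 2.14 ± 0.15 (adjusted p = 0.00443). The gonad call did not hold without any 1 of the Sertoli, ovary or testis arrays (adjusted p = 0.0127 to 0.0915). Adam17, the main sheddase of several EGF-family ligands, differed by 1.07 and 0.83, and Adam9 by 1.82 and 1.12, with no call. Without the second pre-granulosa array Adam9 was called in the sorted cells (2.86, adjusted p = 0.00913), and without the first it differed by 0.79. The list's median was 0.33 in the sorted cells and 0.40 in the gonads.

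Of the 21 response genes, 1 was called in the sorted cells, Etv5, a transcription factor of the ETS family that responds to signalling through receptor tyrosine kinases. It read 4.33 and 5.996 in pre-granulosa cells and 9.07 and 9.51 in Sertoli cells, a difference of 4.13 ± 0.51 (limma adjusted p = 0.00957). The first of the pre-granulosa arrays, at background for Etv5, was the one with the largest 3' to 5' signal difference. Without it the difference was 3.29 (0.00462) and without the second 4.96 (0.00172), both called, while the call held in only 6 of 17 alternatives (adjusted p up to 0.141) and in none that left out a Sertoli, ovary or testis array. Ovaries read 9.23 and 9.46 and testes 10.94 and 10.71, and this difference of 1.48 was not called. Dusp6, a phosphatase that acts on ERK, differed by 2.86 in the sorted cells (adjusted p = 0.0121), and Dusp4, a related phosphatase, by 1.15 there, with pre-granulosa cells at background, and by 1.94 in the gonads, with no call. The list's median was 0.48 in the sorted cells and 0.16 in the gonads. Some genes of the list stood at unlike levels in the sorted and gonad arrays. Egr2 averaged 10.99 in pre-granulosa and 11.04 in Sertoli cells, and 5.87 in ovaries and 6.15 in testes. Fos averaged 10.61, 10.58, 6.95 and 6.68 in the same order. Egr3 averaged 6.40, 6.39, 7.08 and 7.20, but its percentile ranks within the array overlapped (59.4 to 63.6 in sorted cells, 62.2 to 66.4 in gonads). The cause was not tested, and the list was not taken as a measure of EGF-family signalling.

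Of the 14 inhibitors 0 were called by limma in either comparison, while 6 in the sorted cells and 4 in the gonads had an unadjusted p under 0.05, beside 22.4% and 11.5% of all genes. The medians were 0.33 and 0.21. The nearest was Spry4, a Sprouty inhibitor of the Ras pathway, with 4.10 and 5.18 in pre-granulosa cells and 8.72 and 8.78 in Sertoli cells. The difference was 4.11 ± 0.57 (limma adjusted p = 0.0136), and it ranged from 3.57 to 4.65 over the omission of each array. The first pre-granulosa array, at background for Spry4, was the one with the largest 3' to 5' signal difference. Cbl, a ubiquitin ligase for activated receptors, differed by -1.99 in the sorted cells (-3.26 without the first Sertoli array, -0.73 without the second) and 0.60 in the gonads, with no call. Of 20 adaptors and transducers 1 was called, Map2k1, the kinase that activates ERK. It read 7.13 and 7.35 in pre-granulosa cells and 9.01 and 9.58 in Sertoli cells (difference 2.06 ± 0.22, adjusted p = 0.00630), with 9.38 to 9.60 in all gonads, and was called in 7 of 17 alternatives (up to 0.119). In the same list Stat5a differed by -1.52 in the sorted cells (-2.58 without the first Sertoli array, -0.46 without the second) and Pik3r1, a subunit of PI3-kinase, by -1.21 in the gonads, and neither was called.

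Of 4 genes known as targets of EGF-family ligands in the ovulatory follicle, 1 was called in the sorted cells: Tnfaip6, which helps to build the matrix of the expanding cumulus. It read 5.34 and 5.55 in pre-granulosa cells, where Ereg was high, and 8.75 and 8.91 in Sertoli cells, where Ereg was near background. The difference was 3.38 ± 0.23 (limma adjusted p = 0.00171, called in 11 of 17 alternatives, up to 0.0614), and in the gonads it was 1.81 (adjusted p = 0.0353, not called). Ptgs2, which makes prostaglandins, read 4.21 and 8.13 in the pre-granulosa samples, so that these replicates alone spanned 3.92. The lower value came from the array with the largest 3' to 5' signal difference. Sertoli samples read 7.32 and 7.04 for Ptgs2. Both gonad groups were at background for it, with 3.38 and 3.66 in ovaries and 3.14 and 4.03 in testes. Ptx3 differed by -0.11 and 0.54. Of the 5 other ligands limma called 0, and 0 had an unadjusted p under 0.05 in either comparison. Egf (-0.17 and 0.11) and Nrg4 (0.04 and 0.20) differed by less than 0.3.

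**Figure D4:**
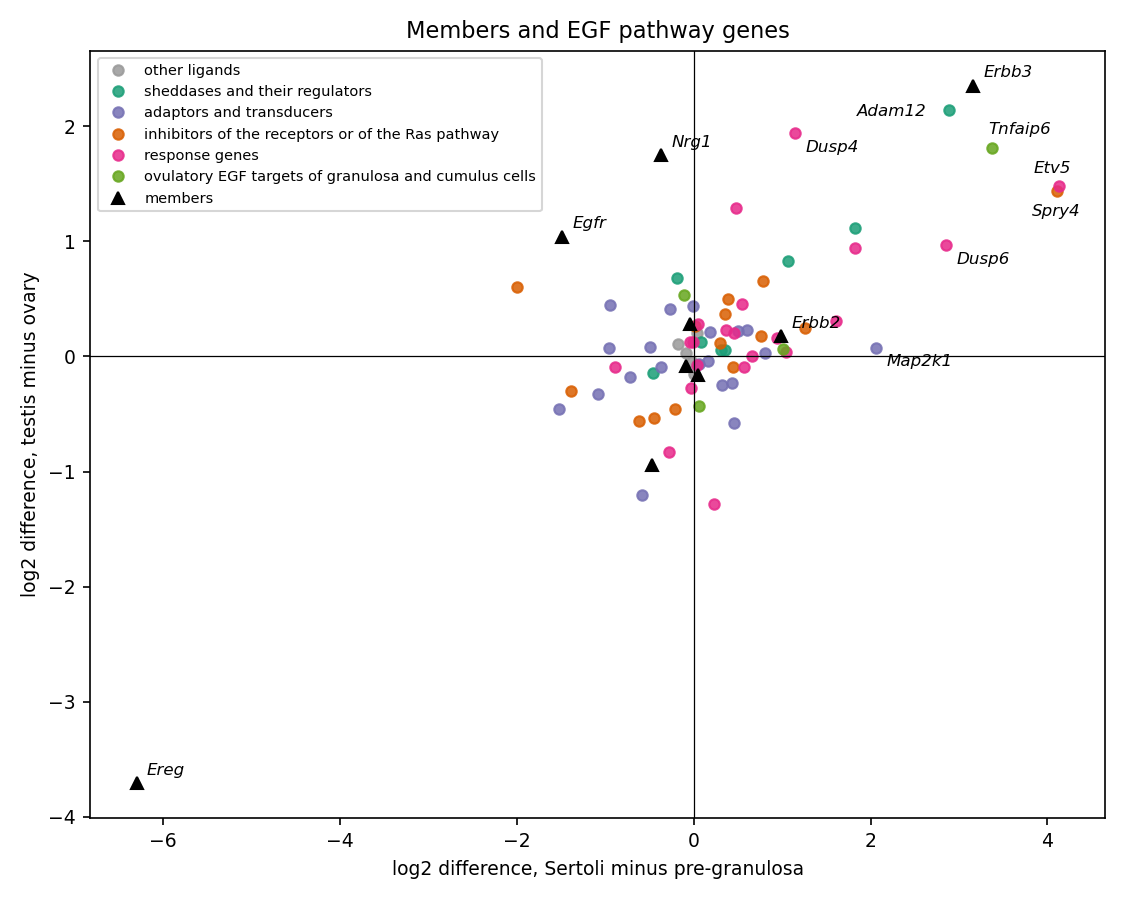
Log2 difference in the gonads (testis minus ovary, vertical axis) against that in the sorted cells (Sertoli minus pre-granulosa, horizontal axis) for the members (triangles) and the 72 measured pathway genes (circles, coloured by list). Ereg lies alone at the lower left, and Etv5, Spry4, Tnfaip6, Adam12 and Erbb3 lie at the upper right.

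The array also covers genes next to the ligands. Ereg, Areg and Btc lie near each other on mouse chromosome 5, and in the order of the RefSeq gene table (assembly GRCm38.p6) the protein-coding genes there run Mthfd2l, Epgn, Ereg, Areg, Btc and Parm1. Epgn, which encodes the EGF-family ligand epigen and is next to Ereg, read 3.79 to 4.23 on all arrays, at background. Mthfd2l differed by -0.20 in the sorted cells and 0.04 in the gonads, and Parm1 by -0.94 and 0.79, with none called. With the Btc values above, none of these 4 neighbours was called, where Ereg was called in both comparisons.

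The genes most like Ereg in pattern were sought by Pearson's r over the 8 arrays, after the sorted and the gonad arrays were each centred on their own mean, among 2004 genes whose values span at least 2 log2 units in the sorted cells. The arrays share the same normalization within a set and 4 groups only, so r is a description. The 5 highest were Csgalnact1 (r = 0.996), Klhl5 (0.993), Pbx3 (0.992), Chdh (0.992) and Tcf12 (0.991). Csgalnact1, an enzyme of chondroitin sulfate synthesis, averaged 11.25 in pre-granulosa cells, 6.20 in Sertoli cells, 10.75 in ovaries and 8.08 in testes. Chdh, choline dehydrogenase, averaged 12.85, 8.89, 11.45 and 9.49 in the same order. As deposited, the means of all 5 were high in both XX groups, intermediate in testes and lowest in Sertoli cells. Within each set this order follows from the choice by r. Sertoli cells and testes lie in different sets, so their order is not settled. For Chdh their percentile ranks within the array overlapped (89.1 and 83.2 in Sertoli cells, 86.1 and 87.2 in testes).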

How the data were processed

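Log2 expression values per probe set were used as deposited; the submitters' processing notes list RMA, with no version. Ranked values differed by at most 0.175 within the sorted and 0.146 within the gonad arrays, and by a median of 0.383 between these sets. Of 45101 probe sets, 64 array controls were left out. Genes were named from the platform annotation: 34945 probe sets had 1 symbol, 932 several and 9160 none.

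The test was limma (version 3.58.1, under R 4.3.3) with a mean for each of the 4 groups and all 8 arrays in 1 fit (eBayes, two-sided, Benjamini-Hochberg over 45037 probe sets, 4 residual degrees of freedom). The authors' threshold, a false discovery rate of 1%, was kept, and R/maanova, which the series text names, was not used. Errors with a difference are standard errors of the model. Depth has no counterpart here, and 2 arrays per group limit the precision.

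The members, lists and tests were chosen with earlier results of these data known. Named genes were all members, the called pathway genes and the 2 largest not called per list, the 5 genes most like Ereg and the chromosomal neighbours. Egr2, Fos and Egr3 of the response list and single marker genes were named outside this rule. The lists of neural crest, Leydig, interstitial, macrophage, endothelial, mesonephric, surface epithelium, germ cell, Sertoli and pre-granulosa markers were read beside the results. Same-numbered samples did not deviate together (r = 0.00944 sorted, 0.0146 gonads), so numbers were not taken as pairs. Alternatives covered normalization, filtering, moderation, weights, arrays in the fit, probe set choice, threshold and omission of each array.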

Additional observations from a re-analysis of the deposited data

How the results depend on the processing

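In the sorted cells Ereg was the 1 member called, and 0 were called without moderation of the variance (Ereg adjusted p = 0.0152 in limma), with the 4 sorted arrays alone (0.0614) or with a replicate block (0.0192); omission of 1 array gave 1 to 2 members. In the gonads the count of 1 became 2 with a trended and robust variance, with group weights or at a threshold of 0.05, each time with Nrg1 added, and 0 without moderation (Ereg 0.0670) or with a replicate block (0.0701); omission of 1 array gave 0 to 1. For the difference of differences the count of 0 became 1 (Nrg1, at background in 3 groups) at a threshold of 0.05, and omission of 1 array gave 0 to 0. Same-numbered samples are not known to be pairs. The Ereg difference stayed between -6.57 and -6.02 in the sorted cells and between -3.90 and -3.51 in the gonads. Of 465 values for the members under these alternatives, 438 kept direction and side of the threshold, 11 lost a call, 3 gained one and 13 changed sign. With 1 exception (the Btc difference of differences, -0.013 after quantile normalization over all arrays), the changes of sign came from the omission of 1 array. In that case the range in the sorted cells was -0.44 to 0.27 for Btc, -0.25 to 0.17 for Hbegf and -0.086 to 0.18 for Erbb4. In the gonads it was -0.29 to 0.12 for Btc and -0.012 to 0.57 for Hbegf, and for the difference of differences -0.35 to 0.35 for Btc and -0.24 to 1.85 for Erbb3. The same alternatives were run on the pathway, neighbouring and Ereg-like genes after their values had been seen. In the sorted cells the count of 4 pathway genes ranged from 0 (no moderation, the 4 arrays alone, replicate block) to 8, and in the gonads the count of 1 from 0 to 3. Omission of 1 array changed the sign in the sorted cells for Nrg4 (-0.12 to 0.20), Egf (-0.41 to 0.07), Ptgs2 (-0.95 to 2.97), Ptx3 (-0.24 to 0.017), Mthfd2l (-0.52 to 0.12), Epgn (-0.029 to 0.042) and Parm1 (-1.89 to 0.011), of which Ptgs2 and Parm1 had differences near 1 log2 unit. In the gonads it did so for Egf (-0.07 to 0.29), Map2k1 (-0.02 to 0.17), Ptgs2 (-0.39 to 0.51), Mthfd2l (-0.089 to 0.17) and Epgn (-0.36 to 0.049). The causes of these shifts were not tested. Members at background, Erbb4 foremost, give no direction, and with 2 arrays per group the differences near 1 log2 unit (Tgfa and Egfr in the gonads, Erbb2 in the sorted cells) were not called.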
